A study of Mus musculus with 8 samples.

Results

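The cytochrome P450 families 2, 3 and 4 were followed in IE-Cpr-null mice and their wild-type (WT) littermates, in isolated enterocytes, which line the small intestine and absorb nutrients. The members were all probe sets of the deposited array table whose platform annotation gave a single gene symbol of these families. That rule took 44 of 18443 probe sets, for 39 of 10401 genes, and used no measured value. In the IE-Cpr-null strain the gene of the P450 reductase, Cpr, is deleted from the epithelium of the gut, and the strain is known to do so with a floxed Cpr allele and a Cre recombinase under the villin promoter. Both groups were male C57BL/6 mice aged 2.5 to 3.0 months on a standard diet. Each genotype had 4 arrays with a pool of 2 mice on each, 8 mice per genotype, and errors are the spread between pools. The Cpr transcript is not analysed here and gave no check of the genotypes.

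P450 enzymes are haem proteins that insert 1 atom of oxygen into their substrates. Those in the endoplasmic reticulum take the electrons for this reaction mainly from Cpr, so that loss of Cpr removes most of their activity without touching their genes. Family 2 is the broadest and holds enzymes for drugs, solvents, steroids and arachidonic acid, family 3 holds the main drug-metabolising enzymes of liver and gut, and family 4 mostly oxidises fatty acids and eicosanoids at the chain end. In the intestine these enzymes form part of the first-pass barrier to swallowed compounds, while many other members are made chiefly in hepatocytes.

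The values were log2 signals that the authors had centred, so that the median of the 4 WT arrays was 0 in every probe set. A value of 1 is therefore a doubling over the WT median of that probe set, no level of expression is known, and probe sets cannot be ranked by abundance. Whether the enterocyte markers are abundant could not be checked for the same reason. Their mean over 18 measured genes lay between -0.11 and 0.038 on the IE-Cpr-null arrays and between -0.11 and 0.027 on the WT arrays. Hepatocyte markers, by contrast, averaged 3.51 and 1.82 on IE-Cpr-null replicates 2 and 3 (22 and 15 of 29 measured genes above 1), and -0.19 and 0.038 on IE-Cpr-null replicates 1 and 4, against -0.063 to 0.054 on the WT arrays. Smooth muscle and stromal markers averaged 3.39 on IE-Cpr-null replicate 1 and -0.37 to -0.23 on replicates 2 to 4, against 1.27 on WT replicate 2 and -0.16 to 0.085 on the other WT arrays. Pancreatic acinar markers averaged -2.83 to -1.05 in IE-Cpr-null, against -2.60 on WT replicate 3 and -0.43 to 1.04 on the other WT arrays. Markers of proximal intestine averaged -1.18 to -0.23 in IE-Cpr-null and -0.26 to 0.46 in WT, those of distal intestine -0.17 to -0.0035 and -0.17 to 0.047, and those of secretory epithelial cells -0.34 to 0.33 and -0.048 to 0.092. RNA was measured in bulk, so fewer cells of a type and less RNA per cell cannot be told apart.

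Upstream sequence is shown for 6 members on which the results below turn. Cyp2d26 was low on every IE-Cpr-null array, and Cyp2d9, of the same subfamily and chromosome, was high on a single array. Cyp2e1, Cyp2f2 and Cyp2c50 were high on that same array, and Cyp2c29 was the intestinal member with the largest positive difference. Each line gives the 150 bases before the annotated start site, 5′ to 3′ on the strand of the gene, from RefSeq on GRCm38.p6. Capitals mark matches on either strand to the HNF1 half-site GTTAAT, the HNF4 element CAAAGTNCA, the nuclear receptor half-sites AGGTCA and AGTTCA, or the TATA box TATAAA. A CAAAGTNCA match with T at its open position would contain AGTTCA.
Cyp2d26, chr15:82794246-82794395, minus strand: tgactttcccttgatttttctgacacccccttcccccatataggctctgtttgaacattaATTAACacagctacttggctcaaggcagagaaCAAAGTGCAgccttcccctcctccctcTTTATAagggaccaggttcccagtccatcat
Cyp2d9, chr15:82452227-82452376, plus strand: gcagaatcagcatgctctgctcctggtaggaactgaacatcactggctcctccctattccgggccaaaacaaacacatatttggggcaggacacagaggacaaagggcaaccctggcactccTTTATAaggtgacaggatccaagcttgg
Cyp2e1, chr7:140763669-140763818, plus strand: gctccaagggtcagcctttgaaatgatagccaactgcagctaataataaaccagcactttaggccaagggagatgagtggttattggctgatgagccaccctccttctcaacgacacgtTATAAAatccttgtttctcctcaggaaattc
Cyp2f2, chr7:27119805-27119954, plus strand: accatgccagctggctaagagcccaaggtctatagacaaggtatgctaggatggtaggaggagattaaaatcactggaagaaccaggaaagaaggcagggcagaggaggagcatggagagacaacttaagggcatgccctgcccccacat
Cyp2c50, chr19:40089529-40089678, plus strand: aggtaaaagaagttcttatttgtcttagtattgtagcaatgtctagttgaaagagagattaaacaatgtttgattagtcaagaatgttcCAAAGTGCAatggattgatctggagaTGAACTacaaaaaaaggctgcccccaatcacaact
Cyp2c29, chr19:39286935-39287084, plus strand: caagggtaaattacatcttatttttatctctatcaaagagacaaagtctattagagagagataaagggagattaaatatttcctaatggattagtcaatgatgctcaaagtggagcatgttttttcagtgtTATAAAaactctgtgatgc

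Cyp2d26 held the HNF1 half-site 90 to 85 bases, the HNF4 element 58 to 50 bases and the TATA box 31 to 26 bases before its start. The window of Cyp2d9 held the TATA box alone, 28 to 23 bases before the start, and the window of Cyp2f2 held none of the 5 motifs. In Cyp2d26 and Cyp2d9 the TATA match lay on the strand opposite to the gene, in Cyp2e1 and Cyp2c29 on that of the gene. The shares below count matches on either strand. Promoter sequence was at hand for 31 of the 39 member genes. The HNF4 element was found in 9 of them (29.0%), against 0.746% of all 32851 windows of the same length: Cyp3a11, Cyp3a16, Cyp3a44, Cyp2c37, Cyp2c50, Cyp2c65, Cyp2c68, Cyp2c70 and Cyp2d26. All but Cyp2d26 are Cyp3a genes of chromosome 5 or Cyp2c genes of chromosome 19, so the 9 are not independent. Each member gene was counted with 1 window, while the 32851 windows were not reduced to 1 per gene. The TATA box was in 35.5% of member windows against 7.57% of all, AGGTCA in 12.9% against 8.58%, AGTTCA in 9.68% against 6.73% and the HNF1 half-site in 3.23% against 3.71%. These are matches of letters. The 9 genes with the HNF4 element did not behave alike on the arrays, since they included Cyp2d26, Cyp2c50 and Cyp3a11, which are described below with a negative difference, a single high array and a difference within its spread.

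Differences between the genotypes were tested with limma over all 18443 probe sets. An adjusted p of 0.05 was passed by 0.0217% of all probe sets and by 0 of the 44 members, among which the smallest adjusted p was 0.117, for Cyp2d26. At an unadjusted p under 0.05, 5 members were higher and 3 lower in IE-Cpr-null enterocytes (2.92% and 4.47% of all probe sets), so no difference below passed the test across the array, and the words higher and lower describe these pools. Of the 44 differences (IE-Cpr-null minus WT), 31 were positive and 13 negative, where 10609 of all 18443 probe sets were positive and 7834 negative. The 9 members that stayed within 0.1 of 0 on every array were all among the positive ones. The other members had 22 positive and 13 negative differences. The median difference of the members was 0.037, against 0.016 over all probe sets. The median was 0.068 over the 29 probe sets of family 2, 0.039 over the 5 of family 3 and -0.068 over the 10 of family 4. Median centring of the arrays gave a median of 0.024 over the members.

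The genotypes did not overlap in 6 members, with all IE-Cpr-null arrays the higher ones in 4 and the lower ones in 2, where 1.64% and 2.47% of all probe sets did so. The 4 were the 3 probe sets of Cyp2b10 and that of Cyp2f2, and the 2 were Cyp2d26 and Cyp4f13. At least 1 array lay beyond 1 in size in 7 members (15.9%, against 5.74% of all probe sets), and all of these belonged to family 2: Cyp2c23, Cyp2c29, Cyp2c50, Cyp2c55, Cyp2d9, Cyp2e1 and Cyp2f2. By array, 5 members were beyond 1 on IE-Cpr-null replicate 2, 2 on replicate 1, and 1 each on replicates 3 and 4, against 1 on WT replicate 3 and 0 on the other WT arrays. A single array stood apart from the other 3 of its genotype, by Dixon's criterion, in 6 members in IE-Cpr-null (13.6%, against 7.74% of all probe sets) and in 4 in WT (9.09%, against 6.59%), which together is 11.4% of groups against 7.16%. At the other end, all 8 arrays stayed within 0.1 of 0 in 9 members (20.5%, against 19.6% of all probe sets). These were Cyp2b9, Cyp2b19, Cyp2c54, Cyp2d12, Cyp2d13, Cyp2d34, Cyp2j5, Cyp4a14 and Cyp4a31, with differences from 0.020 to 0.051.

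**Figure D1:**
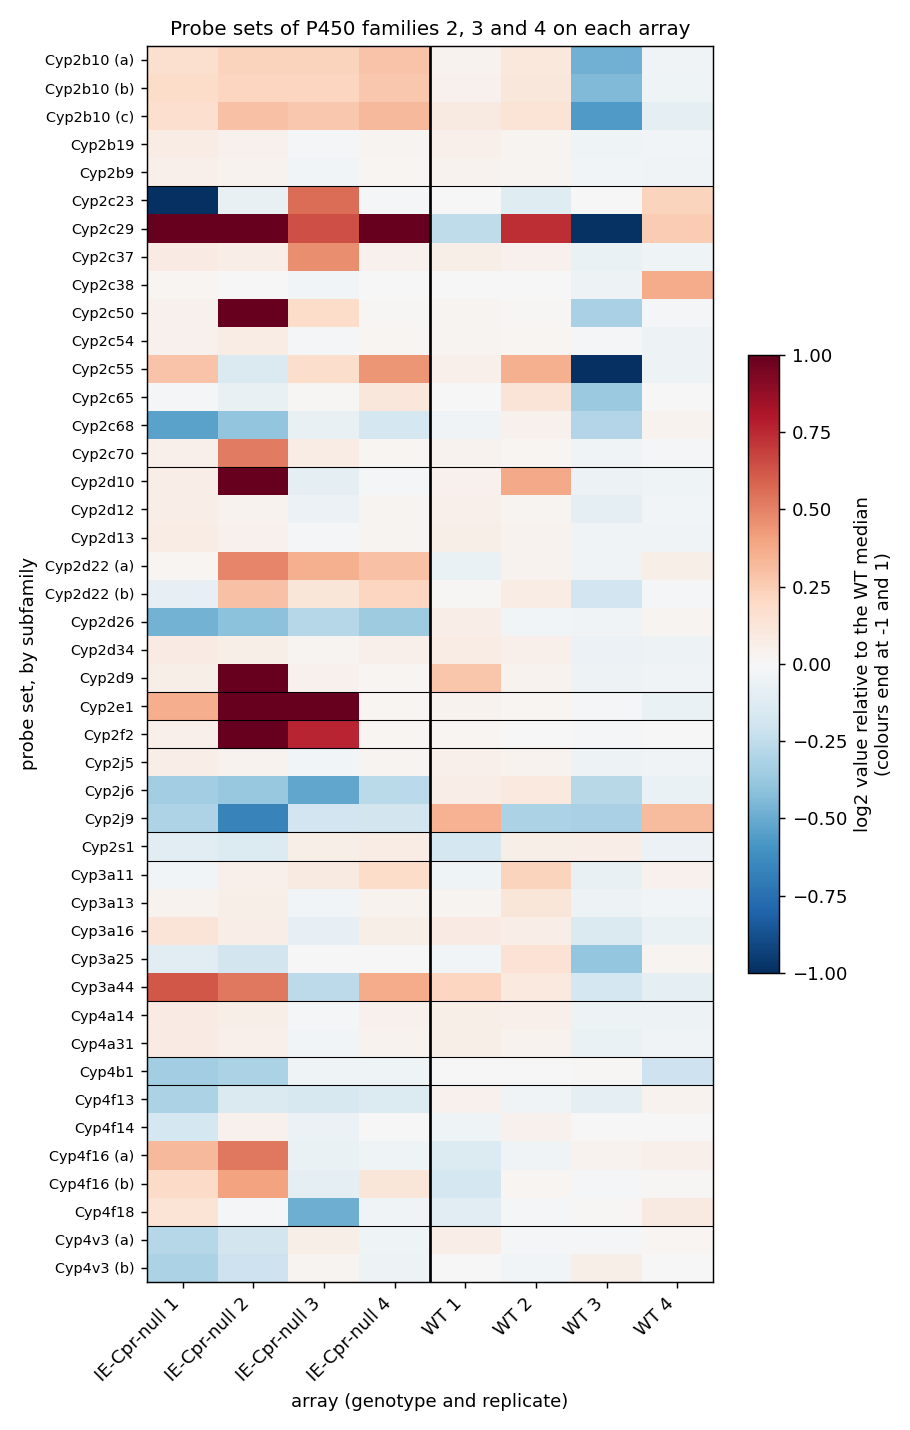
Log2 value of each of the 44 probe sets (rows, by subfamily) on the 4 IE-Cpr-null arrays (left) and the 4 WT arrays (right), as centred on the WT arrays, with colours ending at -1 and 1. Letters a to c mark probe sets of 1 gene. Strong colours stand mostly in the Cyp2c to Cyp2f rows, on IE-Cpr-null replicate 2 more than on the others, and Cyp2d26 is blue on all 4 IE-Cpr-null arrays.

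The Cyp2b subfamily had 3 genes and 5 probe sets. Cyp2b10, a classical target of the nuclear receptor CAR (Nr1i3) and a P450 of both liver and gut, was slightly higher in IE-Cpr-null enterocytes in all 3 of its probe sets. In the probe set with the largest difference the values were 0.17, 0.29, 0.27 and 0.33 on IE-Cpr-null replicates 1 to 4, against 0.091, 0.14, -0.57 and -0.091 on WT replicates 1 to 4. WT replicate 3 was far below the other WT arrays, and the gap between the groups was narrow, with 0.17 as the lowest IE-Cpr-null value and 0.14 as the highest WT value. The difference was 0.37 (SE 0.15, 1.29-fold, limma adjusted p = 0.646, n = 4 pools each). A second Cyp2b10 probe set had 0.16, 0.22, 0.22 and 0.29 on the IE-Cpr-null arrays, against 0.035, 0.11, -0.48 and -0.035 on the WT arrays (0.31, SE 0.12, adjusted p = 0.621). The remaining one had 0.19, 0.21, 0.21 and 0.27 on the IE-Cpr-null arrays, against 0.045, 0.11, -0.45 and -0.045 on the WT arrays (0.30, SE 0.12, adjusted p = 0.606). All 3 had the same order of arrays at the low end, with WT replicate 3 lowest. The pancreatic acinar marker mean of WT replicate 3, -2.60, lay within the IE-Cpr-null range of -2.83 to -1.05. Without that WT array the 3 differences were 0.22, 0.19 and 0.18. Quantile normalization made the groups overlap. The other Cyp2b genes, Cyp2b9 and Cyp2b19, a keratinocyte P450, stayed within 0.1 on all arrays.

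The Cyp2c subfamily had 10 measured genes, all on chromosome 19 in the GRCm38.p6 annotation, where Cyp2c23 lies apart from the cluster of the others. It held 4 of the 7 members with an array beyond 1. Of the 10 differences 7 were positive, with a median of 0.12. Cyp2c29, a P450 of liver and intestine that is inducible through CAR, had values of 1.55, 1.02, 0.64 and 1.27 on IE-Cpr-null replicates 1 to 4, against -0.25, 0.74, -0.99 and 0.25 on WT replicates 1 to 4. All 4 IE-Cpr-null arrays were above 0 and 3 of them above every WT array. The groups overlapped only because IE-Cpr-null replicate 3 (0.64) was below WT replicate 2 (0.74). The difference was 1.18 (SE 0.37, 95% interval 0.31 to 2.05, 2.27-fold) and did not pass across the array (adjusted p = 0.485). It ranged from 0.87 without WT replicate 3 to 1.47 without IE-Cpr-null replicates 2 and 3, the arrays high in hepatocyte markers. In that last setting the groups did not overlap, since IE-Cpr-null replicate 3 was left out.

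Cyp2c55 and Cyp2c65, P450s of the gastrointestinal epithelium in mice, did not separate the genotypes. Cyp2c55 had 0.28, -0.15, 0.18 and 0.44 on IE-Cpr-null replicates 1 to 4, against 0.048, 0.35, -1.45 and -0.048 on WT replicates 1 to 4. Its difference of 0.46 (SE 0.38, adjusted p = 0.86) was carried by WT replicate 3, without which it was 0.071. Cyp2c65 had -0.018, -0.070, 0.011 and 0.11 on IE-Cpr-null replicates 1 to 4, against -0.0048, 0.13, -0.37 and 0.0048 on WT replicates 1 to 4. It was lowest on the same WT array, and its difference was 0.068 (SE 0.11, adjusted p = 0.86). Without that array its difference was -0.035. WT replicate 3 was thus the lowest of the 8 arrays for Cyp2b10, Cyp2c29, Cyp2c55 and Cyp2c65. Its acinar marker mean of -2.60 lay far from those of the other WT arrays but within the IE-Cpr-null range of -2.83 to -1.05. The part of that marker difference in these values was not tested.

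Neighbouring Cyp2c genes that are known chiefly from liver were high on single IE-Cpr-null arrays. Cyp2c50 had 0.041, 1.61, 0.18 and 0.014 on IE-Cpr-null replicates 1 to 4, against 0.027, 0.015, -0.33 and -0.015 on WT replicates 1 to 4. Cyp2c70, which makes muricholic acids from chenodeoxycholic acid in mouse liver, had 0.52 on IE-Cpr-null replicate 2 and 0.022 to 0.073 on replicates 1, 3 and 4, against -0.032 to 0.034 on the WT arrays. Both were thus raised on the array with the highest hepatocyte mean. Cyp2c37 had 0.46 on IE-Cpr-null replicate 3 and 0.043 to 0.085 on replicates 1, 2 and 4, against -0.069 to 0.060 on the WT arrays. Their differences of 0.54 (SE 0.35), 0.17 (SE 0.11) and 0.17 (SE 0.098) had adjusted p of 0.857, 0.859 and 0.813. Without IE-Cpr-null replicate 2 the Cyp2c50 difference was 0.15. Cyp2c54, between Cyp2c37 and Cyp2c50 in the cluster, stayed within 0.1 on all arrays.

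The remaining Cyp2c genes differed within their spread. Cyp2c23, an arachidonic acid epoxygenase, had -1.99 on IE-Cpr-null replicate 1 and -0.075, 0.56 and -0.011 on replicates 2 to 4, against 0.0010, -0.12, -0.0010 and 0.22 on WT replicates 1 to 4. The low value fell on the array rich in smooth muscle and stromal markers. The difference of -0.41 (SE 0.50, adjusted p = 0.86) became 0.13 without that array. Cyp2c68 was lower on average in IE-Cpr-null enterocytes (-0.23, SE 0.12, adjusted p = 0.774), with -0.53, -0.40, -0.073 and -0.17 on IE-Cpr-null replicates 1 to 4, against -0.039, 0.042, -0.30 and 0.039 on WT replicates 1 to 4. Only WT replicate 3 reached into the IE-Cpr-null range. Cyp2c38 was flat except for 0.37 on WT replicate 4 (difference -0.084, SE 0.093).

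Cyp2d26 had the smallest p of all members. It belongs to the Cyp2d subfamily, the mouse counterpart of the human drug-metabolising enzyme CYP2D6, with 7 measured genes and 8 probe sets on chromosome 15. Cyp2d26 had -0.47, -0.41, -0.29 and -0.35 on IE-Cpr-null replicates 1 to 4, against 0.070, -0.030, -0.032 and 0.030 on WT replicates 1 to 4. All IE-Cpr-null arrays were below all WT arrays, and the gap of the group means was several times the spread in either group, -0.38 ± 0.078 against 0.0095 ± 0.049 (SD, n = 4 each). The difference was -0.39 (SE 0.050, 95% interval -0.51 to -0.27), a level 1.31-fold higher in WT. Its unadjusted p was 6.92e-05 and its adjusted p 0.117. The difference stayed between -0.42 and -0.31 in all 18 alternatives. Only quantile normalization and median centring could have made the groups overlap, since the others kept these values or only left arrays out, and neither did. Its limma adjusted p rose as far as 0.736, with quantile normalization. It passed the threshold in 1 alternative, with array weights (adjusted p = 0.00642). That fit called 4.02% of all probe sets, 1.91% as higher and 2.11% as lower, and gave IE-Cpr-null replicate 4 a weight of 6.49 (0.33 to 0.70 for the other IE-Cpr-null arrays) and WT replicate 4 a weight of 2.84 (0.52 to 0.99 for the other WT arrays), so it rests mostly on 1 array per genotype.

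Of the 8 Cyp2d probe sets, 7 had a positive difference. They included those of Cyp2d12, Cyp2d13 and Cyp2d34, which stayed within 0.1 on all arrays. They also included those of Cyp2d9 and Cyp2d10, which turned negative without 1 array. Cyp2d9, the male-specific steroid 16-alpha-hydroxylase of mouse liver, had 4.08 on IE-Cpr-null replicate 2 and 0.062, 0.041 and 0.020 on replicates 1, 3 and 4, against 0.28, 0.035, -0.055 and -0.035 on WT replicates 1 to 4. A single array therefore carried its difference of 1.00 (SE 0.90, adjusted p = 0.86), which was -0.015 without that array. Cyp2d10 showed the same pattern at a lower height, with 0.99 on IE-Cpr-null replicate 2 and -0.089 to 0.065 on replicates 1, 3 and 4, against 0.38 on WT replicate 2 and -0.059 to 0.045 on the other WT arrays. Its difference was 0.16 (SE 0.25, adjusted p = 0.86), and -0.093 without IE-Cpr-null replicate 2.

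Cyp2d22, chosen for description after its values were seen, had 2 probe sets with positive differences of 0.29 (SE 0.096, adjusted p = 0.517) and 0.17 (SE 0.091, adjusted p = 0.78). In the first the values were 0.020, 0.49, 0.36 and 0.29 on IE-Cpr-null replicates 1 to 4, against -0.063, 0.036, -0.036 and 0.060 on WT replicates 1 to 4. IE-Cpr-null replicates 2 to 4 were above all WT arrays, while replicate 1 lay among them. With the array weights described for Cyp2d26 this probe set passed the threshold (0.27, adjusted p = 0.0421). Cyp2d12, Cyp2d13 and Cyp2d34 stayed within 0.1 on all arrays, between Cyp2d9 and Cyp2d26 in gene order.

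Cyp2e1 and Cyp2f2, the only measured genes of their subfamilies, were both highest on the arrays high in hepatocyte markers, IE-Cpr-null replicates 2 and 3. Cyp2e1 oxidises ethanol and other small molecules and is abundant in hepatocytes around the central vein. It had 0.37, 8.11, 6.06 and 0.017 on IE-Cpr-null replicates 1 to 4, against 0.036, 0.020, -0.020 and -0.068 on WT replicates 1 to 4. The IE-Cpr-null arrays thus fell far apart, with replicate 4 inside the WT range. Albumin, Alb, the main secreted protein of hepatocytes, had 0.039, 9.32, 7.90 and 1.40 on the same IE-Cpr-null arrays, against 0.016, 1.70, -0.041 and -0.016 on the WT arrays. The Cyp2e1 difference of 3.65 (SE 1.82, 95% interval -0.59 to 7.88, adjusted p = 0.745) was 0.20 (adjusted p = 0.781) without replicates 2 and 3.

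Cyp2f2, which activates naphthalene in airway club cells and is also made in mouse liver, had 0.052, 3.50, 0.76 and 0.023 on IE-Cpr-null replicates 1 to 4, against 0.018, 0.0032, -0.015 and -0.0032 on WT replicates 1 to 4. All IE-Cpr-null arrays were above all WT arrays, but on replicate 4 by a margin of only 0.023 against 0.018, and the groups overlapped after median centring or quantile normalization. The difference of 1.08 (SE 0.74, adjusted p = 0.86) was 0.037 without replicates 2 and 3.

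**Figure D2:**
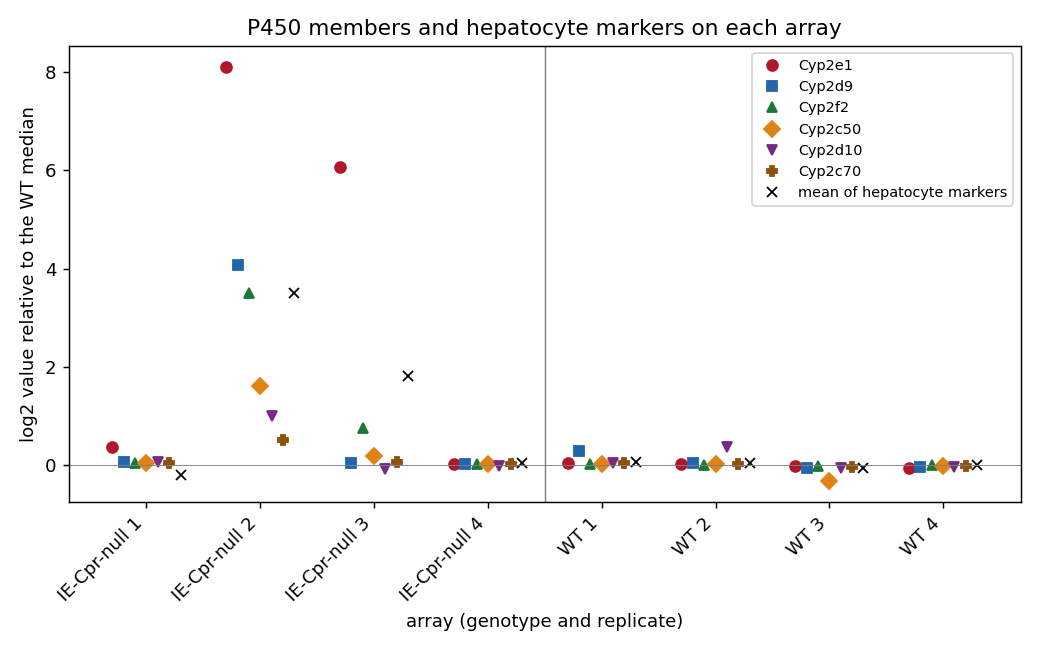
Log2 value relative to the WT median of 6 members that were high on IE-Cpr-null replicate 2, and the mean of the 29 measured hepatocyte markers, on each IE-Cpr-null array (left) and each WT array (right); points are spread sideways within an array for legibility. Cyp2e1 reaches 8.11 and 6.06 on IE-Cpr-null replicates 2 and 3, where the hepatocyte mean is 3.51 and 1.82, and Cyp2d9 stands out on replicate 2 alone, at 4.08.

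The arrays high in hepatocyte markers were not alike in these members. On IE-Cpr-null replicate 2, Cyp2e1, Cyp2d9, Cyp2f2, Cyp2c50, Cyp2d10 and Cyp2c70 were all at 0.52 or above. These genes were chosen as high there, so lower values on replicate 3 follow in part from the choice. On replicate 3, with a hepatocyte mean of 1.82, Cyp2e1 was at 6.06, Cyp2f2 at 0.76 and Cyp2c50 at 0.18. On the same array Cyp2d9 (0.041), Cyp2d10 (-0.089) and Cyp2c70 (0.073) were near 0. Cyp2c37 went the other way, with 0.067 on replicate 2 and 0.46 on replicate 3. Since levels are unknown, a value near 0 does not say whether the transcript was detected. How far hepatocyte RNA carried these values was not tested beyond leaving out replicates 2 and 3.

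The Cyp2j subfamily, epoxygenases of arachidonic acid, was lower in IE-Cpr-null enterocytes in 2 of its 3 measured genes. Cyp2j6, the Cyp2j gene best known from mouse small intestine, had -0.35, -0.38, -0.52 and -0.27 on IE-Cpr-null replicates 1 to 4, against 0.068, 0.095, -0.28 and -0.068 on WT replicates 1 to 4. WT replicate 3 (-0.275) and IE-Cpr-null replicate 4 (-0.267) nearly coincided and made the groups overlap. The difference was -0.33 (SE 0.093, 95% interval -0.55 to -0.12, adjusted p = 0.416). Without WT replicate 3 it was -0.41 and the groups did not overlap. Cyp2j9, known from brain, had -0.30, -0.67, -0.19 and -0.18 on IE-Cpr-null replicates 1 to 4, against 0.35, -0.32, -0.32 and 0.32 on WT replicates 1 to 4. The WT arrays split into a high and a low pair, and the difference of -0.34 (SE 0.20, adjusted p = 0.81) lay within that spread. Cyp2j5, the kidney gene next to it on chromosome 4, stayed within 0.1.

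Cyp2s1, a P450 of epithelial surfaces, had -0.11, -0.14, 0.059 and 0.077 on IE-Cpr-null replicates 1 to 4, against -0.17, 0.057, 0.063 and -0.057 on WT replicates 1 to 4. The ranges covered each other almost fully, with a difference of 0.00031 (SE 0.076, 95% interval -0.18 to 0.18).

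Family 3 was represented by 5 genes of the Cyp3a subfamily on chromosome 5, which clear a large share of drugs in liver and gut. None (0 of 5) was separated between the genotypes, and differences ran from -0.015 to 0.30. Cyp3a11, the main mouse counterpart of human CYP3A4 and a target of the pregnane X receptor (Nr1i2), had -0.027, 0.054, 0.087 and 0.19 on IE-Cpr-null replicates 1 to 4, against -0.047, 0.22, -0.078 and 0.047 on WT replicates 1 to 4. Its difference was 0.039 (SE 0.077, 95% interval -0.14 to 0.22, adjusted p = 0.866). The WT arrays held both its highest and its lowest value.

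Cyp3a13, an intestinal Cyp3a gene, had 0.032, 0.056, -0.026 and 0.036 on IE-Cpr-null replicates 1 to 4, against 0.027, 0.12, -0.052 and -0.027 on WT replicates 1 to 4. All 4 IE-Cpr-null arrays lay inside the WT range, and the difference was 0.0065 (SE 0.047, 95% interval -0.10 to 0.12). Cyp3a25 had -0.11, -0.19, 0.0030 and -0.0025 on IE-Cpr-null replicates 1 to 4, against -0.024, 0.15, -0.39 and 0.024 on WT replicates 1 to 4. Here too the IE-Cpr-null arrays lay inside the WT range (-0.015, SE 0.11, 95% interval -0.28 to 0.25).

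Cyp3a44 and Cyp3a16 completed the subfamily. Cyp3a44, a female-predominant liver gene, had 0.62, 0.53, -0.26 and 0.37 on IE-Cpr-null replicates 1 to 4, against 0.21, 0.094, -0.18 and -0.094 on WT replicates 1 to 4. IE-Cpr-null replicate 3 lay below all WT arrays and the other IE-Cpr-null arrays above them, and the difference was 0.30 (SE 0.20, adjusted p = 0.852). Cyp3a16, a fetal liver gene, differed by 0.061 (SE 0.068). IE-Cpr-null replicate 2 was the highest of its genotype in 1 of the 5, Cyp3a13, at 0.056.

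**Figure D3:**
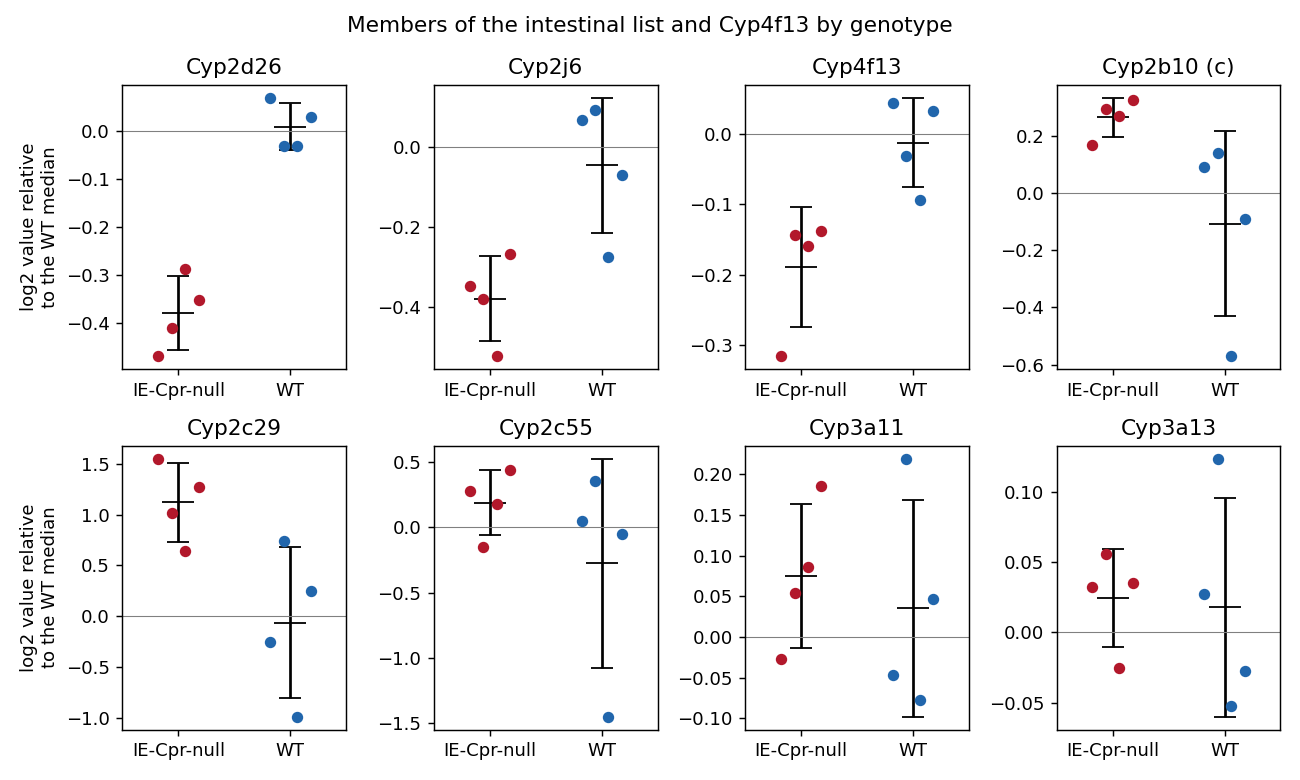
Log2 value relative to the WT median of 8 probe sets, with each IE-Cpr-null pool (red, left) and each WT pool (blue, right) as a point and the group mean and SD (n = 4) as a bar and whiskers; each panel has its own axis. Cyp2d26, Cyp4f13 and Cyp2b10 (c) do not overlap between the groups, and in Cyp2b10, Cyp2c29 and Cyp2c55 the lowest WT point is replicate 3.

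Family 4 had 8 genes and 10 probe sets, 6 of them lower in IE-Cpr-null enterocytes and none (0 of 10) beyond 1 on any array. Cyp4f13 was the member of the Cyp4f subfamily, hydroxylases of fatty acids and leukotrienes, whose groups did not overlap. It had -0.32, -0.14, -0.16 and -0.14 on IE-Cpr-null replicates 1 to 4, against 0.044, -0.032, -0.094 and 0.032 on WT replicates 1 to 4. The difference was small, -0.18 (SE 0.055, 95% interval -0.30 to -0.049, adjusted p = 0.479), and lowest on the array rich in smooth muscle markers. Without that array it was -0.13. After quantile normalization the groups overlapped.

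Cyp4f14, beside Cyp4f13 on chromosome 17 and a Cyp4f gene of intestine and liver, had -0.17, 0.040, -0.055 and 0.0040 on IE-Cpr-null replicates 1 to 4, against -0.043, 0.040, -0.00053 and 0.00053 on WT replicates 1 to 4. The groups overlapped (-0.045, SE 0.052). Cyp4f16 had 2 probe sets that followed each other across arrays. The first had 0.32, 0.52, -0.064 and -0.041 on IE-Cpr-null replicates 1 to 4, against -0.14, -0.039, 0.039 and 0.052 on WT replicates 1 to 4. The second had 0.19, 0.41, -0.087 and 0.12 on IE-Cpr-null replicates 1 to 4, against -0.17, 0.017, -0.014 and 0.014 on WT replicates 1 to 4. IE-Cpr-null replicates 1 and 2 were above the WT range in both, joined by replicate 4 in the second, and the differences of 0.21 (SE 0.14) and 0.20 (SE 0.10) had adjusted p of 0.858 and 0.773. Without IE-Cpr-null replicate 2 they were 0.094 and 0.11, and with array weights 0.0074 and 0.14. Cyp4f18, a leukotriene B4 hydroxylase of neutrophils and other leucocytes, had -0.49 on IE-Cpr-null replicate 3 and -0.037 to 0.14 on the others, against -0.12 to 0.092 on the WT arrays. The leucocyte marker mean was 0.20 on that array and -0.14 to -0.030 on replicates 1, 2 and 4, against -0.12 to 0.15 on the WT arrays.

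Cyp4v3, the mouse counterpart of human CYP4V2, which is mutated in Bietti crystalline dystrophy, had 2 probe sets with differences of -0.12 (SE 0.076, adjusted p = 0.83) and -0.15 (SE 0.075, adjusted p = 0.767). The first had -0.28, -0.19, 0.060 and -0.041 on IE-Cpr-null replicates 1 to 4, against 0.066, -0.018, -0.023 and 0.018 on WT replicates 1 to 4. The second had -0.31, -0.21, 0.024 and -0.049 on IE-Cpr-null replicates 1 to 4, against -0.0065, -0.026, 0.062 and 0.0065 on WT replicates 1 to 4. IE-Cpr-null replicates 1 and 2 were low in both probe sets, and replicate 1, the lower of them, is the array rich in smooth muscle and stromal markers. Without it the differences were -0.066 and -0.087. Cyp4b1, which activates furans, was also low on those IE-Cpr-null arrays, at -0.35 and -0.31. It had -0.043 on both other arrays of that genotype, against -0.0026, 0.0026, 0.0096 and -0.20 on WT replicates 1 to 4 (difference -0.14, SE 0.092, adjusted p = 0.859). Without IE-Cpr-null replicate 1 the Cyp4b1 difference was -0.085. Cyp4a14, a fatty acid omega-hydroxylase and target of PPAR-alpha, had 0.079, 0.056, -0.016 and 0.045 on IE-Cpr-null replicates 1 to 4, against 0.062, 0.047, -0.047 and -0.053 on WT replicates 1 to 4. It stayed within 0.1 throughout, as did the single-symbol probe set of Cyp4a31, and they differed by 0.039 (SE 0.043) and 0.035 (SE 0.044). A probe set that the annotation assigns to both Cyp4a31 and Cyp4a10 was not a member. It differed by -2.19 (SE 0.69, limma adjusted p = 0.485) and is described under the other observations.

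**Figure D4:**
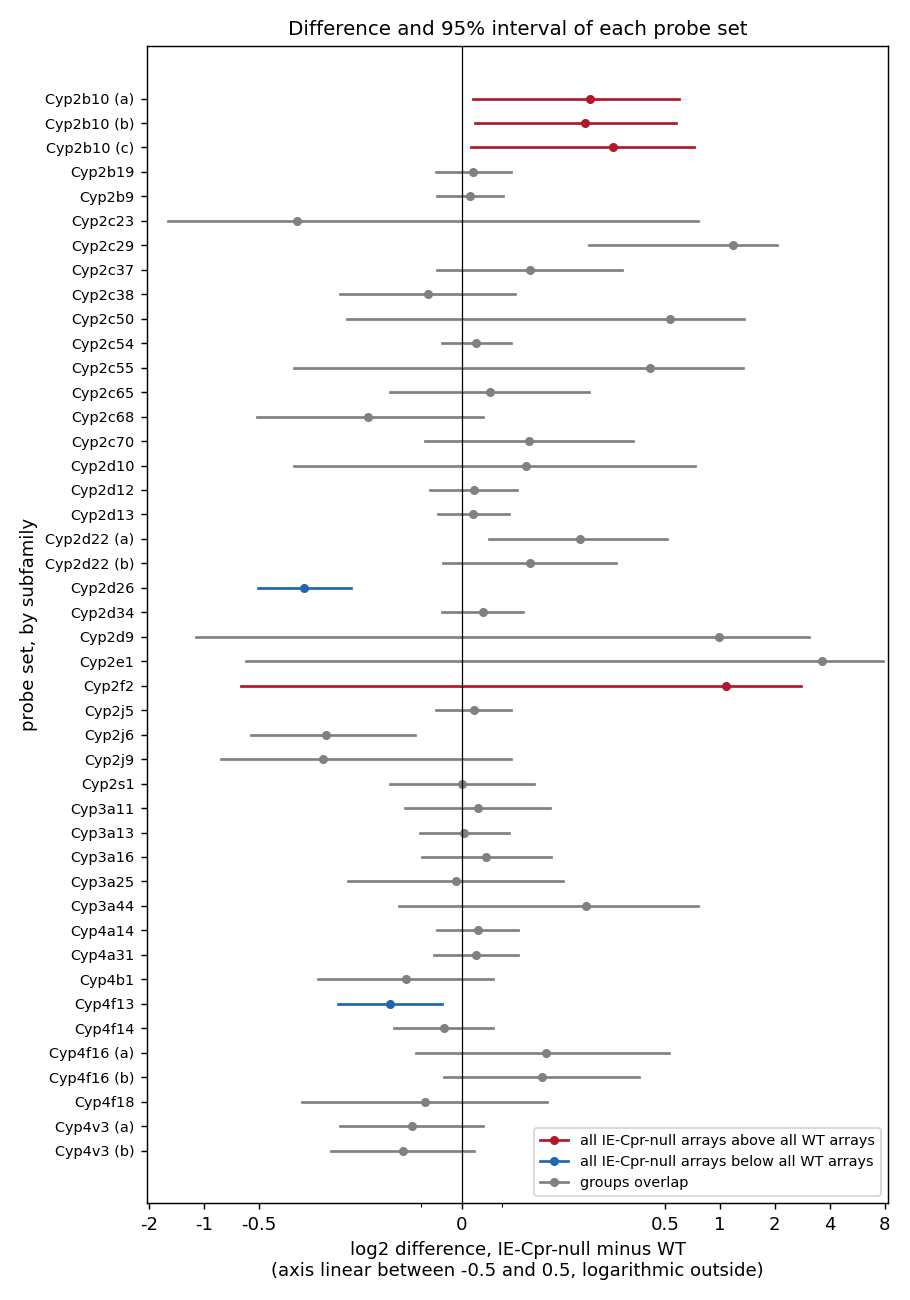
Log2 difference, IE-Cpr-null minus WT, of each of the 44 probe sets with its 95% interval from limma (4 pools per genotype, not adjusted for the number of probe sets); the axis is linear between -0.5 and 0.5 and logarithmic outside. Colour marks probe sets whose IE-Cpr-null arrays lie all above (red) or all below (blue) the WT arrays. The interval of Cyp2d26 lies from -0.51 to -0.27, and those of Cyp2e1, Cyp2d9 and Cyp2f2 are the wide ones that span 0.

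Set side by side, the 14 measured genes of a 16-gene list of intestinal P450s had 11 positive and 7 negative differences over 18 probe sets, with a median of 0.023. Within it the Cyp2b10 and Cyp2c29 differences were positive, those of Cyp2d26 and Cyp2j6 negative, and those of Cyp3a11, Cyp3a13 and Cyp2s1 no larger than 0.039. Cyp2c66 and Cyp2u1 of that list are not analysed here.

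Partners and regulators of these enzymes were taken from lists of genes. Of the other P450 families, 9 genes with 13 probe sets were measured and 0 probe sets passed the threshold. Their groups did not overlap in 6 probe sets, 5 higher and 1 lower in IE-Cpr-null enterocytes, where 1.64% and 2.47% of all probe sets did so. The smallest p was that of Cyp1a2 (5.47, SE 0.59, adjusted p = 0.0677), a xenobiotic-metabolising P450, followed by Cyp1a1 (1.91, SE 0.26, adjusted p = 0.125), its neighbour. Cyp51, the lanosterol demethylase, was higher without overlap in 2 of its 3 probe sets (1.28, SE 0.18, and 0.90, SE 0.14, adjusted p = 0.151 and 0.19) and Cyp7b1, the oxysterol 7-alpha-hydroxylase, in 1 of 2 (0.15, SE 0.064, adjusted p = 0.667). Cyp27a1, the sterol 27-hydroxylase, was lower (-0.62, SE 0.17, adjusted p = 0.418).

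The list of P450 regulators had 31 measured genes and 55 probe sets, with a median difference of -0.054 and 0 past the threshold. Groups did not overlap in 7 probe sets, all lower in IE-Cpr-null enterocytes. Over all probe sets, 2.47% were lower and 1.64% higher without overlap. The 7 came from only 2 genes. They were the 5 of Ppargc1a, a coactivator of nuclear receptors (-0.56 to -0.32, smallest adjusted p = 0.252), and the 2 of Ncoa1, another coactivator (-0.27, SE 0.065, and -0.13, SE 0.047). The receptors themselves overlapped between the genotypes. Nr1i2 differed by -0.21 (SE 0.11) and -0.12 (SE 0.12) in 2 probe sets, Nr1i3 by -0.057 (SE 0.077), and Hnf4a, whose element is marked in the upstream sequences, by 0.073 to 0.18 in 4 probe sets. Among electron donors and helpers, 8 genes with 14 probe sets, 0 passed. Cyb5a, the microsomal cytochrome b5 that can pass electrons to P450s, had the smallest p (0.21, SE 0.066, adjusted p = 0.484), and only Fdx1, the mitochondrial ferredoxin, did not overlap (-0.31, SE 0.098, adjusted p = 0.499).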

How the data were processed

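The authors deposited 1 log2 value for each probe set on each array, made with GCRMA according to the submitters' processing notes (version not given in the sources used here). In every probe set the WT median lay within 9.54e-07 of 0, so the values had been centred on it. No level or background is therefore known and no dim probe set was left out. The labels give no batch, and the number of arrays limits the precision. The titles gave group and replicate of each sample.

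Each probe set was tested with limma 3.58.1 in R 4.3.3 (lmFit and eBayes, two-sided, prior degrees of freedom 1.54), with Benjamini-Hochberg adjustment over all 18443 probe sets and a threshold of 0.05. The code was checked on simulated data. Symbols came from the platform annotation, and 4 probe sets with several P450 symbols were left out. Of the member probe sets, 6 are marked as sharing probes between transcripts, and signal shared by near-identical P450 genes could not be separated. P-values measure the spread between pools.

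The members and all lists were chosen with earlier results of these data known. Named with every array were members past the threshold, without overlap, with an array beyond 1, in the list of 16 intestinal genes, or with the smallest p of a subfamily otherwise unnamed; Cyp2d22, Cyp2c37, Cyp2c68, Cyp2c70, Cyp2d10, Cyp2j9, Cyp3a44, Cyp2c38, Cyp3a16, Cyp4f18 and the receptors were added after their values were seen. The alternatives were 18 settings: quantile normalization, median centring, array weights, the replicate number as a block, a robust prior, other sets of probe sets, and arrays left out.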

Additional observations from a re-analysis of the deposited data

Results flagged for a closer look

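In groups of 4 arrays, an array was singled out where its gap to the nearest of the others, divided by the range of the group, exceeded Dixon's critical value. Among 88 groups (44 probe sets in each genotype) this held in 10 (11.4%), where chance gives about 1 in 20. Over all probe sets the same held in 7.16% of groups, 7.74% in IE-Cpr-null (members 13.6%) and 6.59% in WT (members 9.09%). Of the 6 in IE-Cpr-null, 4 were high values on replicate 2: Cyp2d9 at 4.08 (others 0.020 to 0.062), Cyp2c50 at 1.61 (others 0.014 to 0.18), Cyp2d10 at 0.99 (others -0.089 to 0.065) and Cyp2c70 at 0.52 (others 0.022 to 0.073). That array had the highest hepatocyte marker mean, 3.51. Cyp2c37 was high on replicate 3, at 0.46 (others 0.043 to 0.085), and Cyp4f13 low on replicate 1, at -0.32 (others -0.16 to -0.14). Cyp2e1 was not singled out, since 2 arrays were high.

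In WT, Cyp2c38 was high on replicate 4, at 0.37 (others -0.052 to 0.0049), and Cyp4b1 low on the same array, at -0.20 (others -0.0026 to 0.0096). Cyp2c50 was low on replicate 3, at -0.33 (others -0.015 to 0.027), and the second Cyp4f16 probe set low on replicate 1, at -0.17 (others -0.014 to 0.017).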

How the results depend on the processing

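No member passed the threshold in 17 of the 18 alternatives, and 2 did with array weights, Cyp2d22 higher and Cyp2d26 lower, where 4.02% of all probe sets passed and replicate 4 of each genotype carried most of the weight. The count of members without overlap was less stable. With 4 higher and 2 lower as reported, quantile normalization left 0 higher and 1 lower, gene means 2 higher, leaving out probe sets that share probes 2 higher (Cyp2b10 then counts once), and keeping the more variable probe sets, whose SD exceeded the median SD, 1 lower. Without IE-Cpr-null replicates 2 and 3 there were 7 higher and 4 lower, and without IE-Cpr-null replicate 1 and WT replicate 2 there were 8 higher. With 1 array left out the counts ran from 4 to 8 higher (8 without IE-Cpr-null replicate 4, 7 without 3) and from 2 to 4 lower (4 without IE-Cpr-null replicate 3 or WT replicate 3), fewer arrays making overlap rarer by construction, and the median difference from 0.017 to 0.055. That median was 0.17 over the more variable probe sets. Differences changed sign in 28 of 634 values, among them those of Cyp2d9, Cyp2c23 and Cyp2d10, which rest on 1 array. Without replicate 1 of IE-Cpr-null, Cyp2c23 was 0.13, and 0.082 without WT replicate 2 as well, where Cyp3a25 was 0.067 and Cyp4f14 0.011. Without IE-Cpr-null replicate 2, Cyp2d9 was -0.015, Cyp2d10 -0.093, Cyp3a13 -0.0039 and Cyp3a25 0.022. Without replicates 2 and 3, Cyp2d9 was -0.015, Cyp2d10 -0.055, Cyp3a25 0.0017 and Cyp4f18 0.057. Cyp4f18 was 0.037 without replicate 3 alone. Cyp2s1 was -0.013 with median centring, -0.029 and -0.035 without IE-Cpr-null replicates 3 or 4, and -0.048 and -0.0096 without WT replicates 1 or 4. Cyp3a13 was -0.0067 with median centring, -0.014 with quantile normalization, and -0.017 and -0.0085 without WT replicates 3 or 4. Cyp3a25 was 0.028 with quantile normalization, and 0.054 and 0.013 without WT replicates 2 or 4. Cyp2c38 was 0.013 without WT replicate 4, Cyp2c65 -0.035 without WT replicate 3 and Cyp4b1 0.033 with array weights. Without 1 array, or without IE-Cpr-null replicate 1 and WT replicate 2, the values farthest in the direction reported were -0.72 (Cyp2c23), -0.13 (Cyp2c38), 0.14 (Cyp2c65), 0.32 (Cyp2d10), 1.34 (Cyp2d9), 0.042 (Cyp3a13), -0.12 (Cyp3a25), -0.074 (Cyp4f14) and -0.17 (Cyp4f18); without IE-Cpr-null replicates 2 and 3, Cyp2c23 was -1.03 and Cyp4f14 -0.084. With the replicate block 0 members passed and the median was 0.037. Same-numbered arrays did not deviate together throughout, with correlations of -0.058, -0.041, 0.26 and 0.13 for replicates 1 to 4. The highest correlations of these IE-Cpr-null arrays with a WT array of another number were 0.34, 0.095, 0.039 and 0.083. Replicates 3 and 4 were thus closer to their own number and replicates 1 and 2 were not. A shared effect of the replicate number was not tested further. Where arrays were left out to leave 2 in a group, the pooled spread stands for that group. The cause of these changes was not tested.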

Other observations

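The single-symbol rule leaves out 4 probe sets that the annotation assigns to several genes of these families, and 1 of them differed more than any Cyp4 member. It is shared by the Cyp4a genes Cyp4a31 and Cyp4a10, targets of PPAR-alpha. On IE-Cpr-null replicates 1 to 4 it had -2.07, -2.07, -3.17 and -3.03, against 0.15, 0.85, -2.44 and -0.15 on WT replicates 1 to 4. WT replicate 3 lay within the IE-Cpr-null range, and the difference was -2.19 (SE 0.69, limma adjusted p = 0.485). The acinar marker mean had the same outlying WT array, at -2.60, and its part in this value was not tested. Ppara itself differed by -0.52 (SE 0.36, adjusted p = 0.86). The other 3 shared probe sets differed by 0.038 to 0.16.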
